A study of Mus musculus with 6 samples.

Results

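Alveolar macrophages (AMs) are the resident phagocytes of the air spaces, and 10 genes by which mouse AMs are recognised were followed here among the 54532 genes of a whole-lung RNA-Seq table. The genes were taken by their symbols: *Siglecf*, *Marco*, *Itgax*, *Mertk*, *Chil3*, *Ear1*, *Ear2*, *Cd68*, *Plet1* and *Krt79*. All 10 were present in the table, and all 10 passed the filter on low counts that left 18689 genes to be tested.

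Lungs of untreated mice were collected at 2 months old, perfused with PBS to clear the blood, and each of 3 WT and 3 ISM1-KO (ISM1-/-) animals gave 1 library. ISM1 (isthmin-1) is a secreted protein, and the study asked what it does in allergic airway inflammation after house dust mite extract. The baseline lungs were sequenced there to look for a mechanism, and clearance of dying cells by AMs was studied as well. WT mice were C57BL/6J animals bought from a supplier and ISM1-/- mice were bred in-house on the same background, so effects of genotype cannot be told apart from those of where the mice came from. The RNA came from whole lung tissue and not from sorted cells, so a lower level of an AM gene can mean fewer AMs or less RNA of that gene per cell, and these cannot be told apart.

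AMs arise from fetal monocytes, depend on the growth factor GM-CSF and the transcription factor PPARγ, and renew themselves in the alveolus. They take up surfactant lipids, inhaled particles and apoptotic cells, the last of these by efferocytosis through receptors such as MERTK. Several of their marker genes are shared with other cells: *Siglecf* with eosinophils, *Itgax* with dendritic cells, and *Cd68* and *Mertk* with other macrophages.

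None of the 10 AM genes passed the test in ISM1-/- lungs. In edgeR's quasi-likelihood test, adjusted by Benjamini-Hochberg over all 18689 genes, 0 of 10 had an adjusted p under 0.1 with at least a 2-fold change, where 0.567% of all genes tested did. Without the fold minimum the count was also 0 of 10, beside 4.72% of all genes. DESeq2 called 0 of 10 as well. Before adjustment, 3 of 10 (*Marco*, *Mertk* and *Plet1*) had a p under 0.05, beside 15.8% of all genes tested. Of these, *Marco* and *Plet1* were lower (9.3% of all genes) and *Mertk* was higher (6.48%). The mean was lower in ISM1-/- lungs for 8 members and higher for 2, *Itgax* and *Mertk*, while 48.8% of all genes had a lower mean. The median log2 fold change (ISM1-/- over WT) of the members was −0.13, from −0.31 to 0.25, and that of all genes tested was 0.0043. The 95% intervals of all 10 members lay within a 1.5-fold change in either direction, the lowest bound being a 1.46-fold fall (*Marco*) and the highest a 1.36-fold rise (*Mertk*).

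**Figure D1:**
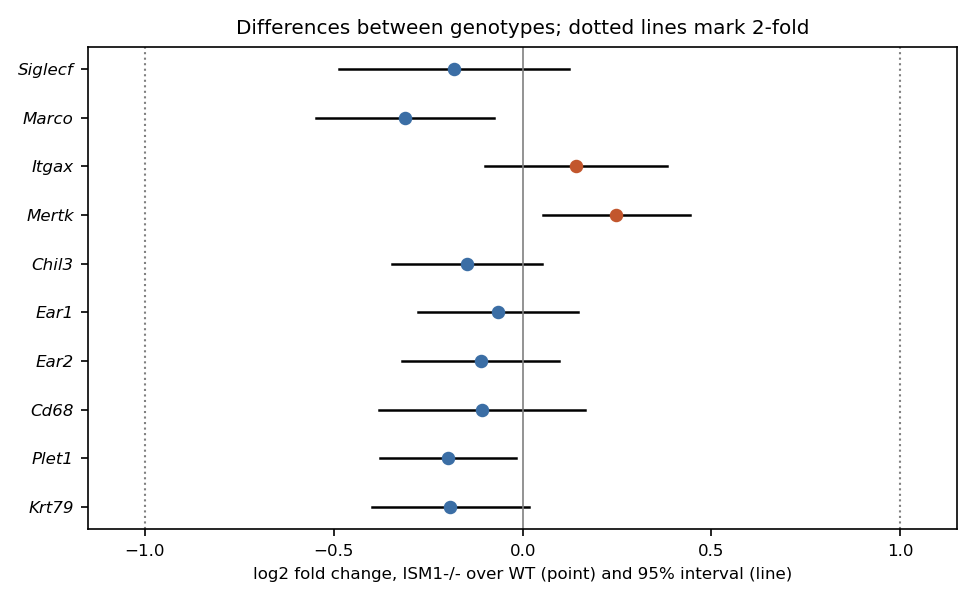
Log2 fold change of each AM gene in ISM1-/- over WT lungs (points, blue below 0 and orange above) with its 95% interval from edgeR (lines). All 10 intervals lie well inside the dotted lines at 2-fold, and those of Marco, Plet1 and Mertk leave out 0.

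The surface receptors came first. *Siglecf* encodes Siglec-F, a sialic acid-binding lectin, and lies at chr7:43351341-43359531 (GRCm38, plus strand). Its level in CPM (reads of the gene relative to all reads of the library, scaled by the TMM method) was 13.4, 14.4 and 11.03 in WT replicates 1 to 3 and 10.6, 13.6 and 10.1 in ISM1-/- replicates 1 to 3. The genotypes overlapped, since ISM1-/- replicate 2 was above WT replicates 1 and 3. The log2 fold change was −0.18 (SE 0.14, adjusted p = 0.584).

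*Marco* encodes a scavenger receptor for inhaled particles and bacteria and lies at chr1:120474538-120505024 (minus strand). It was measured at 13.01, 15.7 and 15.8 CPM in WT and at 10.9, 12.8 and 12.2 CPM in ISM1-/- lungs. Every ISM1-/- library was below every WT library, a separation that 21.6% of all genes tested had in one direction or the other and that 2 of the 10 members had. The mean was 14.8 ± 1.56 CPM (SD, n = 3) in WT and 11.9 ± 1.002 CPM in ISM1-/- lungs, which is 80.7% of WT. This difference, a log2 fold change of −0.31 (SE 0.11), had an unadjusted p of 0.0147 and did not pass after adjustment (adjusted p = 0.175).

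*Itgax* encodes the integrin CD11c and lies at chr7:128129547-128150657 (plus strand). Its CPM was 58.2, 55.3 and 48.2 in WT and 66.8, 61.4 and 50.1 in ISM1-/- lungs. The highest values were in ISM1-/- replicates 1 and 2, and ISM1-/- replicate 3 was below WT replicates 1 and 2. The log2 fold change was 0.14 (SE 0.11, adjusted p = 0.592).

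*Mertk*, the receptor tyrosine kinase of efferocytosis, lies at chr2:128698956-128802894 (plus strand). WT libraries held 79.8, 71.8 and 67.4 CPM, and ISM1-/- libraries held 83.4, 79.9 and 96.8 CPM. The genotypes did not overlap, though WT replicate 1 and ISM1-/- replicate 2 lay next to each other at 79.76 and 79.89 CPM. In the deposited FPKM, which use library totals without TMM, this order turned (22.719 and 22.715 FPKM) and the genotypes overlapped. The mean was 73.0 ± 6.26 CPM (SD, n = 3) in WT and 86.7 ± 8.90 CPM in ISM1-/- lungs, or 119% of WT. Its log2 fold change of 0.25 (SE 0.09) had an unadjusted p of 0.0179 and an adjusted p of 0.191. Without ISM1-/- replicate 3, the highest library, the log2 fold change was 0.16 (adjusted p = 0.286).

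**Figure D2:**
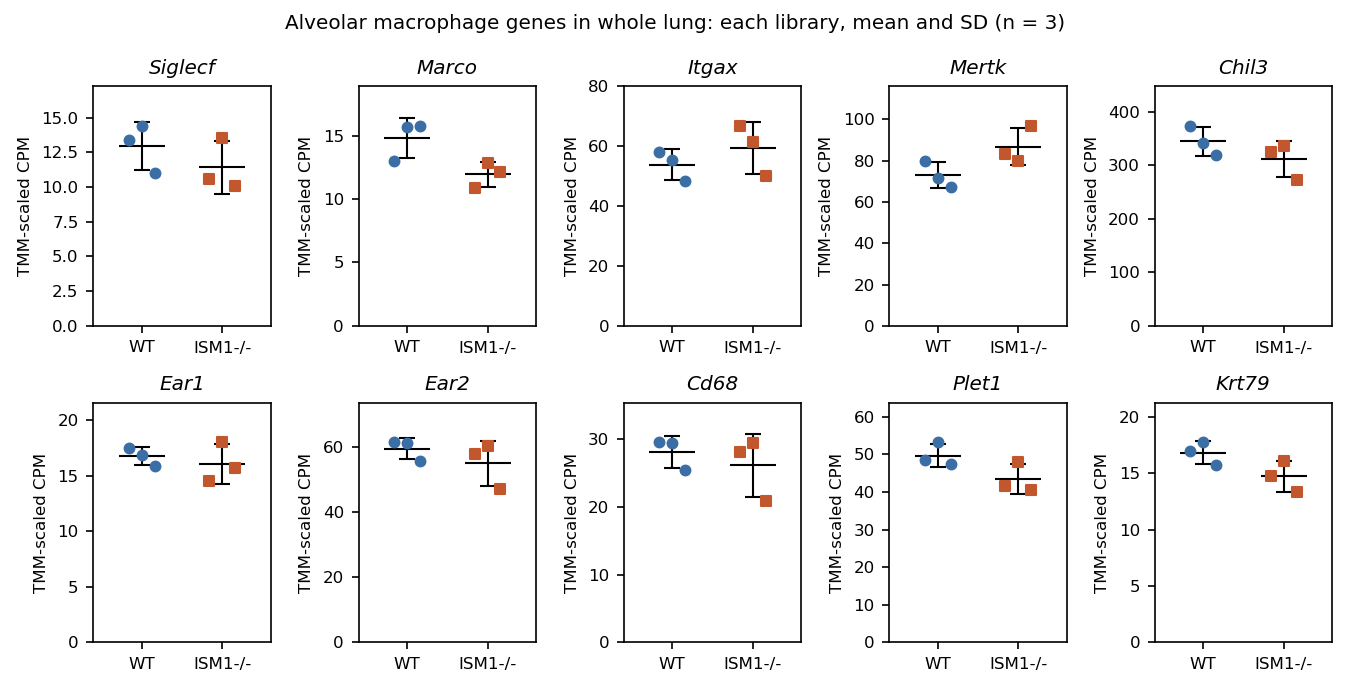
TMM-scaled CPM of each AM gene (vertical axes, each from 0) in the 3 WT (circles) and 3 ISM1-/- (squares) libraries, with the mean (long bar) and SD (capped line). Only for Marco and Mertk do the points of the genotypes not overlap, for Mertk only on this scale and not in FPKM.

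The secreted proteins followed. *Chil3* encodes the chitinase-like lectin Ym1 and lies at chr3:106147554-106167564 (minus strand). With 10648 to 14223 reads per library it was the most deeply counted AM gene. It was at 374, 342 and 319 CPM in WT and at 326, 336 and 273 CPM in ISM1-/- lungs, with 2 ISM1-/- libraries inside the WT range and replicate 3 below it. Its log2 fold change was −0.15 (SE 0.09, adjusted p = 0.472). *Chil4*, its neighbour and paralog at chr3:106201490-106219507, has a coding sequence 94.4% identical to that of *Chil3* but held only 8 to 41 reads in WT lungs. In ISM1-/- lungs *Chil4* held 153, 21 and 25 reads, a log2 fold change of 1.65 (adjusted p = 0.333) that was 0.23 without replicate 1. No stretch of 150 bases, the read length, was shared between the annotated transcripts of *Chil3* and those of any other gene.

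*Ear1* and *Ear2* encode eosinophil-associated ribonucleases that mouse AMs also make, and they lie at chr14:43818765-43875517 (minus strand) and chr14:44102654-44103534 (plus strand). Their coding sequences are shown because the closeness of the pair decides how well reads can be assigned to either gene. In GRCm38 with GENCODE M21 they differ at 23 of 471 aligned positions (95.1% identity). The first 150 coding bases of each, with the 5 bases that differ in capitals, are at chr14:43819260-43819409 (minus strand) for *Ear1* and chr14:44102887-44103036 (plus strand) for *Ear2*.
Ear1: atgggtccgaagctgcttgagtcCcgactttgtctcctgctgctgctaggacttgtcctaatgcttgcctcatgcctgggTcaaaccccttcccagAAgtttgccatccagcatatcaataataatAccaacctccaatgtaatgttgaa
Ear2: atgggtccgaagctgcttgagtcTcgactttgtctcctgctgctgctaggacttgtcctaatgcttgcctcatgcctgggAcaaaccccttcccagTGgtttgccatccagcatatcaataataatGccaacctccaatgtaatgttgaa

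The longest run identical between these coding sequences was 96 bases, shorter than a 150-base read. Of all 150-base windows in the transcripts of *Ear1*, 5.67% were shared with another gene, the pseudogene *Ear-ps9*, and 6.32% of those of *Ear2* were shared with *Ear10*. *Ear10* held 1 or 2 reads per library and *Ear-ps9* at most 1. How the authors' counting treated reads that fit several genes is not given in the sources used here.

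*Ear1* was at 17.5, 16.9 and 15.9 CPM in WT and at 14.5, 18.01 and 15.7 CPM in ISM1-/- lungs. Both the highest and the lowest library were ISM1-/-, and the log2 fold change was −0.06 (SE 0.09, adjusted p = 0.813). *Ear2* was at 61.5, 61.4 and 55.8 CPM in WT and at 57.9, 60.3 and 47.2 CPM in ISM1-/- lungs. Only ISM1-/- replicate 3 fell below the WT range of *Ear2*, with a log2 fold change of −0.11 (SE 0.09, adjusted p = 0.627). *Ear1* took 21.6% to 22.2% of the reads of the pair in WT and 20.03% to 24.9% in ISM1-/- lungs.

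The other members are an endosomal protein, a surface protein and a keratin. *Cd68*, the lysosomal glycoprotein by which macrophages are commonly stained, lies at chr11:69664213-69666153 (minus strand). It was at 29.5, 29.5 and 25.4 CPM in WT and at 28.1, 29.5 and 20.8 CPM in ISM1-/- lungs. Replicates 1 and 2 of ISM1-/- lay within the WT range, and replicate 3 was the lowest. The log2 fold change was −0.11 (SE 0.12, adjusted p = 0.743).

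*Plet1*, a surface protein, lies at chr9:50494525-50505482 (plus strand). It was at 48.5, 53.1 and 47.4 CPM in WT and at 41.6, 47.9 and 40.6 CPM in ISM1-/- lungs. Only ISM1-/- replicate 2 overlapped the WT range, just above WT replicate 3. The log2 fold change of −0.20 (SE 0.08) had an unadjusted p of 0.0352 and an adjusted p of 0.265. *Plet1* overlaps the antisense gene *Plet1os*, which held at most 90 reads in a library against a mean of 1840.0 for *Plet1*. Whether the counting used the strand of the reads is not given in the sources used here.

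*Krt79*, a keratin gene transcribed in AMs, lies at chr15:101929332-101940324 (minus strand). It was at 17.0, 17.7 and 15.7 CPM in WT and at 14.7, 16.1 and 13.3 CPM in ISM1-/- lungs. As with *Plet1*, only ISM1-/- replicate 2 reached into the WT range. The log2 fold change was −0.19 (SE 0.09, adjusted p = 0.360).

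Per transcript length the members spanned a wide range. The deposited FPKM values, which divide counts by library total and gene length, placed *Chil3* first, at a mean of 475 FPKM over the 6 libraries and above 99.4% of the genes tested. *Ear2* followed at 79.8 FPKM, then *Plet1* at 38.3, *Itgax* at 36.8, *Cd68* at 28.6, *Ear1* at 26.7, *Mertk* at 22.6, *Marco* at 11.7 and *Krt79* at 11.2 FPKM. *Siglecf* was lowest at 6.204 FPKM. Neighbours in this order whose ranges over the libraries overlapped were *Plet1* and *Itgax*, *Cd68* and *Ear1*, *Ear1* and *Mertk*, and *Marco* and *Krt79*. *Chil3* alone gave 47.1% to 52.5% of the summed CPM of the members.

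**Figure D3:**
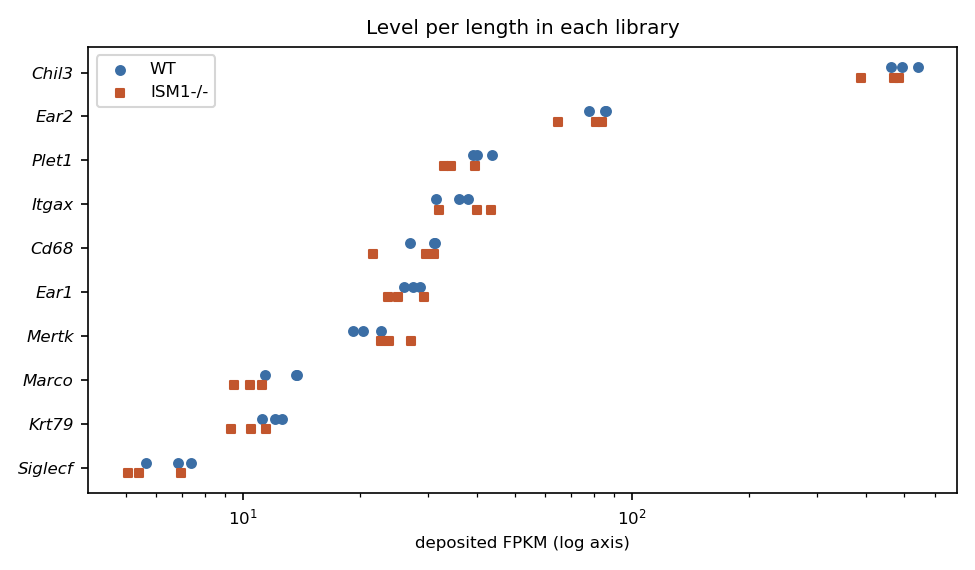
Deposited FPKM (log axis) of each AM gene in the 3 WT (circles) and 3 ISM1-/- (squares) libraries, ordered by the mean over all libraries. Chil3, between 389 and 543 FPKM, stands above the other 9 genes, and for every gene the highest library is under 1.5 times the lowest.

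The libraries were compared next. Summed over the 10 members, the level was 712, 678 and 621 CPM in WT and 654, 676 and 579 CPM in ISM1-/- lungs. The means, 670.4 ± 45.8 CPM (SD, n = 3) and 636 ± 50.5 CPM, differed by less than the spread within either genotype, and without *Chil3* they were 326 ± 19.9 and 325 ± 16.7 CPM. In the sum without *Chil3*, the means of *Itgax* and *Mertk* were 110% and 119% of WT. Those of the other genes were 80.7% (*Marco*) to 95.7% (*Ear1*) of WT, so the near-equal sums hold differences in both directions. ISM1-/- replicate 3 had the lowest value for 6 of the 10 genes (*Siglecf*, *Chil3*, *Ear2*, *Plet1*, *Krt79* and *Cd68*) and the highest for *Mertk*. In ISM1-/- replicate 2, 9 of 10 genes were above their own mean over the 6 libraries, as in WT replicate 1. Without ISM1-/- replicate 3 the log2 fold changes of *Chil3*, *Ear2* and *Cd68* were −0.06, −0.01 and 0.03, and the log2 ratio of the summed level was −0.01 in place of −0.08. That of *Marco* was −0.32 without this library.

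**Figure D4:**
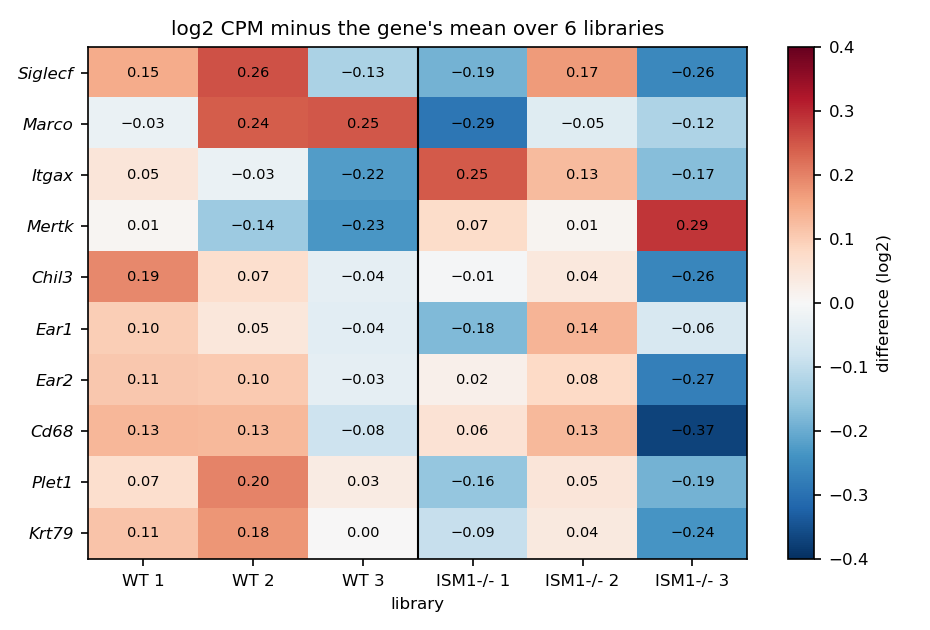
Log2 CPM of each AM gene in each library (columns; WT left and ISM1-/- right of the line) minus the mean of that gene over the 6 libraries. Most of the column of ISM1-/- replicate 3 is blue (low), with Mertk the exception at 0.29, and Marco is the row that is lower throughout the right side.

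The spread between libraries was set beside that of read counting. In WT lungs the coefficient of variation of the members was between 4.88% (*Ear1*) and 13.3% (*Siglecf*), where Poisson counting alone would give 3.89% and 4.43%. For *Chil3* it was 8.01% against 0.859%. In ISM1-/- lungs *Cd68* varied most, by 17.8% against 3.10% from counting. Total counts ranged from 37606133 to 42345042 per library, and the targeted gene, *Ism1*, kept 2508 to 2953 reads in ISM1-/- lungs beside 2975 to 3215 in WT lungs (log2 fold change −0.19, adjusted p = 0.217). The part of *Ism1* that was removed is not given in the sources used here, so its gene-level count checks no label.

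The mean profile of the members over the 6 libraries was then set beside all other genes that averaged 1 CPM or more. The 5 nearest of 15866 genes were *Smtn*, *Eng*, *Fbxo10*, *Slc46a3* and *Fance*, which differed from it by a root mean square of 0.0134 to 0.0256 on the log2 scale, beside a median of 0.153 for all genes compared. All 5 had adjusted p values of 0.534 or more, which their choice by closeness to this profile largely fixed. Members lay between 0.0511 (*Krt79*) and 0.233 (*Mertk*) from their own mean profile, with *Marco* at 0.179 and *Itgax* at 0.152. *Marco* and *Mertk* were thus further from it than the median gene compared. A gene with the same level in every library would lie 0.0973 from this profile, so nearness to it shows no shared AM pattern.

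PU.1 is the transcription factor on which macrophage identity depends, and its core motif GAGGAAG was searched on both strands in the RefSeq promoter windows of the members, 250 bases before to 50 after the start site in GRCm38.p6. Windows were found for all 10 genes. A match was present in 2 of 10, *Siglecf* and *Marco*, and in 13.6% of 32851 promoter windows of the same length. The matching stretches of both surface receptors are shown with the match in capitals (its reverse complement in *Siglecf*), at chr7:43351235-43351314 (plus strand), 66 bases before the start of *Siglecf*, and at chr1:120505131-120505210 (minus strand), 146 bases before that of *Marco*.
Siglecf: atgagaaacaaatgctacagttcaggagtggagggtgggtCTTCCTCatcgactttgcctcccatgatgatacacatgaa
Marco: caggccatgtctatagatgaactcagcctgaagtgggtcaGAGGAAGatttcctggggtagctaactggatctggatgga

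The 250 bases before the start sites of *Ear1* and *Ear2* were 97.6% identical over 252 aligned positions, with 196 in 1 unbroken run, and neither window held the motif. A match is only a description of these letters.

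Other genes of AM biology and markers of other lung cells were read from 15 lists, chosen with earlier results of these data known. Of the 182 genes tested outside the members, 34 passed at an adjusted p under 0.1, beside 4.72% of all genes tested. Among 19 other AM genes tested, 1 rose and 1 fell, beside 1.38% and 3.34% of all genes, with a median log2 fold change of −0.02. *Fabp4*, a fatty acid-binding protein also found in adipocytes and endothelium, was at 49.2, 37.6 and 36.4 CPM in WT and fell to 9.28, 11.7 and 23.7 CPM in ISM1-/- lungs (log2 fold change −1.46, adjusted p = 0.0327). Adipocyte markers moved with it: 9 of 10 fell, and their summed level was 152 to 203 CPM in WT and 38.7 to 97.1 CPM in ISM1-/- lungs. Their part in the result for *Fabp4* was not tested. *Fabp4* no longer passed without WT replicate 2 (adjusted p = 0.107) or ISM1-/- replicate 2 (adjusted p = 0.132). *Cd2*, an adhesion receptor that lymphocytes carry too, rose (log2 fold change 0.42, adjusted p = 0.0607), but its call was lost without any library other than ISM1-/- replicate 3 (adjusted p = 0.123 to 0.183).

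Of the 18 genes of the growth factor and transcription axis, 1 fell and none rose, beside 3.34% and 1.38% of all genes tested. *Csf2ra* and *Csf2rb*, the chains of the GM-CSF receptor, had log2 fold changes of −0.05 each (adjusted p = 0.878 and 0.920). *Pparg* was at 10.5 CPM in WT and 9.18 CPM in ISM1-/- lungs (adjusted p = 0.384). *Cebpb*, a transcription factor of myeloid cells and adipocytes, fell by 0.47 on the log2 scale (adjusted p = 0.0967), and its adjusted p was 0.119 to 0.289 without WT replicates 1, 2 or 3 or ISM1-/- replicate 1. *Bhlhe40* had a log2 fold change of 0.34 (adjusted p = 0.231).

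Apoptotic cell recognition and uptake is the process in which *Mertk* acts, and 1 of 20 other genes tested fell and none rose (median log2 fold change 0.01). Over all genes tested 3.34% fell and 1.38% rose. *Tyro3*, of the same receptor family as *Mertk*, was at 25.5, 29.4 and 29.2 CPM in WT and fell to 21.8, 22.4 and 20.3 CPM in ISM1-/- lungs (log2 fold change −0.38, adjusted p = 0.0375). Its adjusted p was 0.104 to 0.160 without WT replicates 2 or 3 or ISM1-/- replicates 1 or 2. *Axl*, the other receptor of that family, had a log2 fold change of −0.15 (adjusted p = 0.404), and the bridging ligands *Gas6* and *Pros1* had 0.02 each (adjusted p = 0.918 and 0.912). *Lrp1*, an uptake receptor, had −0.20 (adjusted p = 0.215).

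Lysosomal and scavenger genes gave 0 of 18 past the test, with *Npc2* and *Ctsb* nearest to it (log2 fold changes −0.15 and −0.10, adjusted p = 0.288 and 0.438). Before adjustment 1 of them, *Npc2*, had a p under 0.05, and DESeq2 called 0. Of 17 activation genes tested, *Il1b* rose by 0.60 on the log2 scale (adjusted p = 0.0997), from 5.44 to 8.26 CPM, and its call was lost without any library other than ISM1-/- replicate 3 (adjusted p = 0.143 to 0.304). The median of the activation genes was 0.28. Over all genes tested the median was 0.0043, and 4.72% passed in either direction. *Tnf*, a macrophage cytokine, held 35 to 87 reads per library. It was at 1.05 CPM in WT and 1.65 CPM in ISM1-/- lungs (adjusted p = 0.335), with ISM1-/- replicate 3 inside the WT range at 0.999 CPM. Which cells gave the values of the activation genes was not tested.

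**Figure D5:**
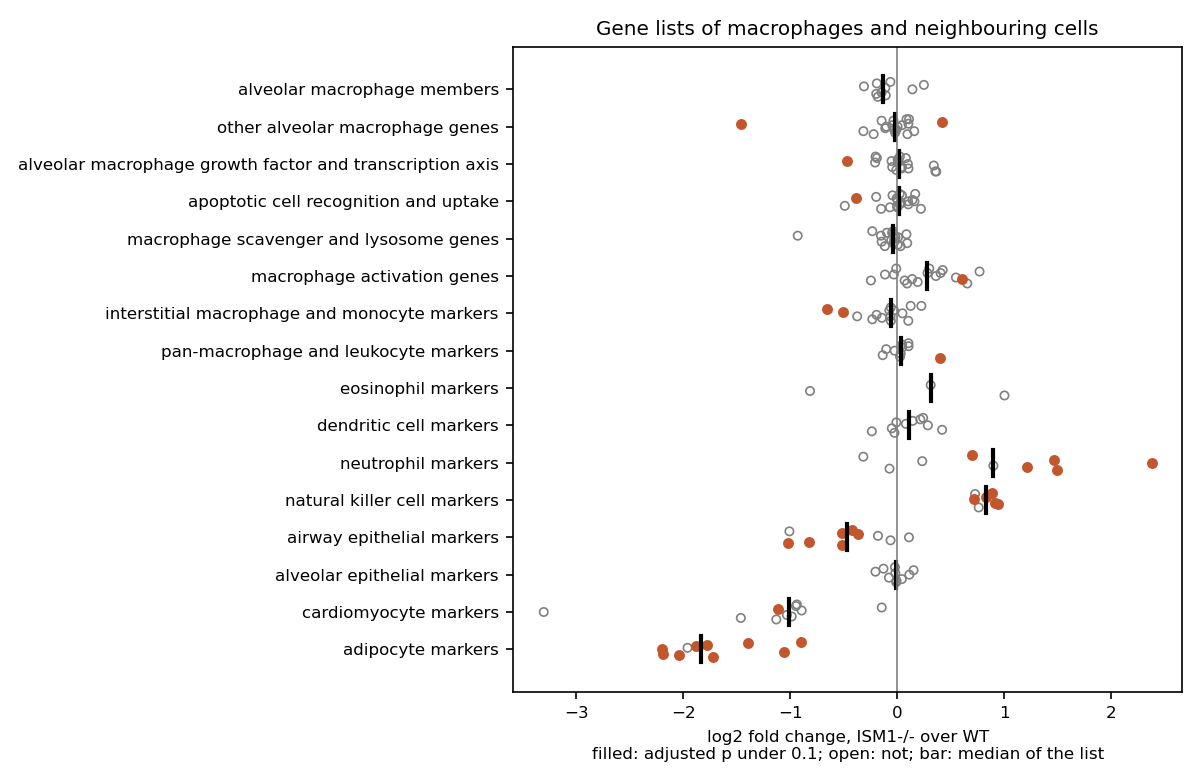
Log2 fold change (ISM1-/- over WT, horizontal axis) of every tested gene of the AM members and 15 other lists (rows). Filled points passed at an adjusted p under 0.1, open points did not, and bars mark list medians, which are −0.13 for the members, 0.90 for neutrophil and −1.83 for adipocyte markers.

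Markers of cells that share the members were read in the same way. Eosinophils share *Siglecf*, and their defining gene *Epx* was at 0 reads in all 6 libraries while *Prg2* held at most 10. The eosinophil markers summed to 4.16 to 5.53 CPM in WT and 2.74 to 5.12 CPM in ISM1-/- lungs, below *Siglecf* alone. *Alox15* gave 2.72 to 3.90 CPM of this sum in WT and 1.18 to 2.61 CPM in ISM1-/- lungs. The part of eosinophils in the value of *Siglecf* was not tested. Of 3 markers tested, edgeR called 0 and DESeq2 1, with 1 (*Alox15*) at an unadjusted p under 0.05 (*Alox15* −0.82 and *Ccr3* 1.001 on the log2 scale, adjusted p = 0.175 and 0.560). Dendritic cells share *Itgax*, and edgeR called 0 of their 10 markers, DESeq2 1, with 3 at an unadjusted p under 0.05 (*Ccr7* 0.42 and *Itgae* 0.29, adjusted p = 0.154 and 0.170). Their sum was 101 to 115 CPM in WT and 119 to 125 CPM in ISM1-/- lungs, and the mean of *Itgax* was higher too. *Zbtb46* gave the largest part of this sum, at 49.2 CPM in WT and 58.2 CPM in ISM1-/- lungs. Of the 10 markers 6 had higher means and 4 lower (*Xcr1*, *Clec9a*, *Flt3* and *Batf3*). Over ISM1-/- replicates 1 to 3 the sum was 119, 122 and 125 CPM, while *Itgax* went from 66.8 to 50.1 CPM. The part of dendritic cells in the value of *Itgax* was not tested.

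Interstitial macrophages and monocytes share *Cd68* and *Mertk*, and 2 of their 15 markers fell and none rose, beside 3.34% and 1.38% of all genes tested. *F13a1*, a coagulation factor subunit made by monocytes and tissue macrophages, fell from 23.5 to 15.0 CPM (log2 fold change −0.65, adjusted p = 0.0238) and passed without any one library. *Folr2*, a folate receptor, fell by 0.51 (adjusted p = 0.0899), and its adjusted p was 0.191 to 0.274 without any library other than ISM1-/- replicate 3. *C1qa*, *C1qb* and *C1qc* had log2 fold changes of −0.06, −0.07 and −0.06. Among 10 pan-macrophage and leukocyte markers, *Ptprc* (CD45) rose by 0.40 (adjusted p = 0.0546), while *Adgre1* (F4/80) was at 18.3 and 18.8 CPM (adjusted p = 0.867) and *Cd14* had −0.14 (adjusted p = 0.457). The call of *Ptprc* was lost without WT replicates 2 or 3 or ISM1-/- replicates 1 or 2 (adjusted p = 0.146 to 0.201).

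Outside the macrophages, 5 of 9 neutrophil markers rose (*S100a8*, *S100a9*, *Cxcr2*, *Ngp* and *Csf3r*, log2 fold changes 0.70 to 2.38), as did 5 of 7 natural killer cell markers (*Klrb1c*, *Gzma*, *Klra8*, *Eomes* and *Prf1*, 0.71 to 0.94). *Ltf* and *Mcemp1*, also on the neutrophil list, had lower means (−0.32 and −0.07, edgeR adjusted p = 0.187 and 0.758). *Ltf* held 2087 to 2139 reads in WT libraries, where *Ngp* held 1 to 12, and the cells that gave its reads were not tested. Over all genes tested, edgeR called a rise in 1.38% and a fall in 3.34%. Airway epithelial markers fell in 6 of 10 (*Foxj1*, *Cyp2f2*, *Scgb1a1*, *Bpifa1*, *Scgb3a2* and *Krt15*, −1.02 to −0.37), and 0 of 10 alveolar epithelial markers passed in edgeR or DESeq2, with 1 at an unadjusted p under 0.05 (*Sftpb* and *Abca3* nearest, −0.20 and −0.13). The adipocyte markers that fell were *Adipoq*, *Plin1*, *Plin4*, *Cidec*, *Lep*, *Retn*, *Pck1*, *Pnpla3* and *Car3* (−2.19 to −0.90). Of 10 cardiomyocyte markers 1 passed (*Myl7*, −1.11, with *Ryr2* next at −0.99), but 0 did in DESeq2 and 9 did with no filter on low counts, and their sum in WT replicate 1 was 1697 CPM beside 574 and 680.5 CPM in the other WT libraries. Neutrophil marker calls numbered 2 without WT replicate 2, ISM1-/- replicate 1 or ISM1-/- replicate 2, and 3 without WT replicate 1. Natural killer cell marker calls were 0 without WT replicates 2 or 3 or ISM1-/- replicates 1 or 2. Airway marker calls were 1 without WT replicate 2, 2 without ISM1-/- replicate 2 and 3 without ISM1-/- replicate 1. Adipocyte marker calls were 3 without ISM1-/- replicates 1 or 2, 4 without WT replicate 2 and 5 without WT replicate 3. Cardiomyocyte marker calls were 3 without ISM1-/- replicate 3 and 0 without any other library. Beside these, the summed level of the 10 AM genes in ISM1-/- lungs was 94.9% of that in WT.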

How the data were processed

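RNA was measured in 3 WT and 3 ISM1-/- lung libraries, grouped by the genotype in the labels. The authors mapped 150-base read pairs of poly-A enriched, strand-specific libraries to GRCm38 by STAR, and they deposited unnormalised read counts of 54532 genes. The authors also deposited FPKM values of the same libraries, used here for levels per length only. The counting program, its annotation and strand setting are not given in the sources used here. Genes with 0.5 CPM in at least 1 library were kept, scaled by TMM and compared with edgeR 4.0.16 (quasi-likelihood test, no covariates, Benjamini-Hochberg over 18689 genes, R 4.3.3). Each SE came from the same fit. Alternatives were DESeq2 1.42.0, other scalings and filters, the replicate number as a block, and leaving out each library.

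The members and lists were chosen with earlier results of these data known. Named are all members, *Ism1*, paralogs of members, genes past an adjusted p of 0.1 and the 2 with the smallest p in each list, defining markers of the lists, and the 5 genes nearest the members' profile. Sequences came from GENCODE M21 transcripts and RefSeq promoters, and no protein sequence was used here.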

Additional observations from a re-analysis of the deposited data

How the results depend on the processing

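In all alternatives 0 of 10 AM genes passed with the 2-fold minimum. Without that minimum 1 passed, *Mertk* (log2 fold change 0.24, adjusted p = 0.0814), when no filter on low counts was applied and 31946 genes were tested. Of 130 refitted log2 fold changes of members, 127 kept their direction and side of the threshold, and 2 changed sign: *Ear1* was 0.0068 without ISM1-/- replicate 1 (−0.15 to 0.0068 over single omissions) and *Cd68* 0.033 without ISM1-/- replicate 3 (−0.20 to 0.033). The ratios of mean FPKM, which carry no test, had the same sign as the fitted values in 10 of 10 members. The summed level of the members kept a log2 ratio between −0.13 and −0.01 when single libraries were left out. It was −0.0033 without *Chil3*, a sum in which *Itgax* and *Mertk* had higher means and the other members lower ones. List genes other than members numbered 34 past the test, 57 with no filter on low counts, and 8 to 51 without single libraries (8 without WT replicate 2, 16 without WT replicate 3, 11 and 9 without ISM1-/- replicates 1 and 2); the cause was not tested. With total counts only, *Cebpb* and *Il1b* had adjusted p values of 0.1004 and 0.108, and with genes above a mean of 2 CPM 0.106 and 0.108. Cardiomyocyte marker calls were 0 with that filter and with the replicate block, and *Folr2* and *Il1b* had adjusted p values of 0.120 and 0.113 with the block. Over all genes, 882 passed, 1632 did with no filter, and without single libraries 150 (WT replicate 2) to 1470 (ISM1-/- replicate 3). Whether the replicate numbers pair the mice is not given in the sources used here. Correlations of same-numbered libraries were −0.0275, 0.0341 and 0.0622, beside −0.0936 to 0.085 for other pairs. These correlations, over 3 libraries per genotype, cannot decide it. The replicate block gave 0 members, 36 list genes and 1105 genes past the test, beside 0, 34 and 882 without it. With 3 libraries per genotype, the standard errors of the members were 0.081 to 0.14 on the log2 scale.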

Other observations

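ISM1-/- replicate 1 stood apart in several genes related to the members or to macrophage activation, which were named after their values were seen. *Chil4* held 153 reads there and 8 to 41 in the other libraries. *Rnase2a*, of the eosinophil-associated ribonuclease family, held 33 reads there beside 0 to 5 elsewhere. *Retnla*, a secreted protein of alternatively activated macrophages, was at 88.0 CPM there and at 28.8 to 42.7 CPM in the other libraries. In the same library *Chil3* and *Ear2* were at 326 and 57.9 CPM, inside the WT ranges, and *Ear1* at 14.5 CPM was below its WT range.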
